A study of Arabidopsis thaliana with 12 samples.

Results

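Small RNA was followed over 3 growth regulator genes of Arabidopsis thaliana: GRF5 (AT3G13960), TCP14 (AT3G47620) and BRI1 (AT4G39400). A gene was taken as all deposited bins of 100 bp that list it as a gene, which gave 15 bins for GRF5, 3 for TCP14 and 5 for BRI1, or 23 of the 152484 bins and 3 of the 9508 gene loci in the table. The genes were picked by hand for their rises in urt1-1, with no numerical threshold, so every urt1-1 value of these genes is given as a description and without a test. The Col-0 libraries entered that choice as well.

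Inflorescences of 4 genotypes were sequenced with 3 replicates each: the wild type and the mutants heso1-1, urt1-1 and ntp4-1, all in the Col-0 ecotype. The plants had no treatment and grew at 22 °C under days of 16 h light and 8 h dark, and total RNA was extracted with TRIzol, treated with DNase I and made into libraries with the NEBNext small RNA kit. HESO1 and URT1 are uridylyltransferases, enzymes that add uridine to the 3' ends of RNA, and the study relates NTP4 to the accumulation of miRNAs. Whether plants were pooled and what each allele disrupts is not stated in the labels, and in whole inflorescences fewer cells of a type and less RNA per cell cannot be told apart.

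GRF5 is a growth-regulating factor, a transcription factor that works with GIF co-activators to promote cell division in leaves and other young organs. TCP14 is a class I TCP transcription factor that, with its close relative TCP15, affects cell division and stem growth, whereas class II TCP proteins mostly restrain growth. BRI1 is the cell-surface receptor kinase that binds brassinosteroid, a steroid hormone of cell expansion, and its signal releases growth genes from the inhibitory kinase BIN2. Small RNAs over protein-coding genes can be breakdown products of the mRNA or siRNAs cut from double-stranded copies of it, and the bins give neither strand nor read length to separate these.

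All 3 genes lie on the plus strand, and TAIR10.1 annotates no other gene that overlaps any of them. GRF5 is at chr3:4608076-4610497, has 4 exons and codes from 4608526 to 4610160. TCP14 is at chr3:17558793-17561259 and BRI1 at chr4:18324457-18328831, and each is a single exon. The sequences below are the coding stretches that carried small RNA, read from the RefSeq copy of TAIR10.1 on the plus strand, 5′ to 3′. They are shown because they place the signal in the genes: the GRF5 stretch is its pair of highest bins in urt1-1, and the TCP14 and BRI1 stretches are coding bins of lower signal, since the leading bins of those genes lie in the 3' UTR and are not printed. No base is marked in them.
GRF5 chr3:4609801-4610000: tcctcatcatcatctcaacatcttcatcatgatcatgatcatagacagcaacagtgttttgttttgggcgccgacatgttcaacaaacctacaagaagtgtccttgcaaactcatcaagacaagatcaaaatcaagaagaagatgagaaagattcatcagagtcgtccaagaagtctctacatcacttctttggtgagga
TCP14 chr3:17560301-17560400: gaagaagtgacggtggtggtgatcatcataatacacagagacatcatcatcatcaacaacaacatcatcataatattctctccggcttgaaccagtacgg
BRI1 chr4:18328301-18328400: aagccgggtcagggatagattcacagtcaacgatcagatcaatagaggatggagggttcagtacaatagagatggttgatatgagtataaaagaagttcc

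GRF genes are known as targets of miR396, which pairs with a coding site in most family members. The mature sequences, as RefSeq annotates them, follow with the seed (bases 2 to 8) in capitals.
ath-miR396a-5p: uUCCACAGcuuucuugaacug
ath-miR396b-5p: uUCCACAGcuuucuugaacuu
Both share the same seed. The best match to the complement of ath-miR396a-5p in each GRF mRNA was found by a search that allowed mismatches and 1 extra base. The matches of GRF3, GRF7 and GRF5 are shown, since they span the range, with capitals for mismatches and extra bases.
GRF3 chr2:15271745-15271766 (minus strand): cCgttcaagaaagCctgtggaa
GRF7 chr5:21795145-21795166: TCgttcaagaaagcAtgtggaa
GRF5 chr3:4608501-4608521: TaTCtGaagaaagctAGAgaa
The GRF5 match differed at 7 positions and lay outside the coding sequence, and that of GRF6 differed at 6. The 7 other GRF genes matched with 2 or 3 differences, all in coding sequence. Of 31346 genes with an mRNA searched, 11, or 0.0351%, matched within 3 differences, and 7 of those 11 were GRF genes. A match is a description of letters and not of cleavage.

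Values are RPM, read counts relative to library depth as the authors scaled them, summed over the bins of a gene. In 11 of the 12 libraries the whole reads behind them could be recovered, with totals of 2761330 (heso1-1 replicate 3) to 11191516 reads (heso1-1 replicate 2). The listed bins held 28.7% to 67.5% of each library. The lowest total of any listed bin was 12 reads over the 12 libraries, so a bin that is not listed is not a measured 0. The whole table shifted as well: relative to Col-0, the median log2 fold change over tested loci was -0.33 for heso1-1, -0.43 for urt1-1 and -0.82 for ntp4-1.

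Small RNA over GRF5 was low in Col-0 and ntp4-1 and high in urt1-1 and in part of the heso1-1 libraries. The 3 Col-0 libraries had 0.719, 0.823 and 1.21 RPM over GRF5, which were 8 and 6 reads in the first pair. The urt1-1 libraries had 69.3, 36.5 and 21.9 RPM, or 537, 135 and 169 reads. The heso1-1 libraries had 18.8, 1.34 and 35.5 RPM, or 169, 15 and 98 reads, and the ntp4-1 libraries 0.263, 0.608 and 1.28 RPM, or 2, 3 and 7 reads. Every urt1-1 library thus lay above every Col-0 and ntp4-1 library, while heso1-1 replicate 2 stood just above the highest Col-0 library and the other two heso1-1 libraries stood among or near the urt1-1 values. The means were 0.916 ± 0.256 RPM in Col-0, 18.6 ± 17.1 in heso1-1, 42.6 ± 24.2 in urt1-1 and 0.717 ± 0.517 in ntp4-1 (SD, n = 3).

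TCP14 had the same order of genotypes at lower levels. Its Col-0 libraries had 0.360, 0.412 and 0.402 RPM, and its ntp4-1 libraries 0.395, 0.405 and 0.366 RPM, which is 2 to 4 reads in each library whose reads were recovered. Its urt1-1 libraries had 6.32, 7.57 and 4.54 RPM, or 49, 28 and 35 reads. Its heso1-1 libraries had 1.78, 0.715 and 4.71 RPM, or 16, 8 and 13 reads. Again heso1-1 replicate 2 was the lowest of its group and replicate 3 the highest, and replicate 3 reached into the urt1-1 range. The means were 0.391 ± 0.0277 RPM in Col-0, 2.40 ± 2.07 in heso1-1, 6.14 ± 1.53 in urt1-1 and 0.389 ± 0.0206 in ntp4-1 (SD, n = 3).

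Over BRI1 the Col-0 libraries were at 0.0899, 0.137 and 0.101 RPM, which in the first pair is 1 read each. The ntp4-1 libraries had 0.263, 0.203 and 0.366 RPM, or 2, 1 and 2 reads. The urt1-1 libraries had 5.29, 10.01 and 3.63 RPM, or 41, 37 and 28 reads, and the heso1-1 libraries 1.56, 0.625 and 6.16 RPM, or 14, 7 and 17 reads. The hormone receptor gene was therefore next to unmeasured in Col-0 and ntp4-1, and the heso1-1 libraries spread from below to within the urt1-1 range, in the same replicate order as for the transcription factor genes. The means were 0.109 ± 0.0248 RPM in Col-0, 2.78 ± 2.96 in heso1-1, 6.31 ± 3.31 in urt1-1 and 0.277 ± 0.0824 in ntp4-1 (SD, n = 3).

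**Figure D1:**
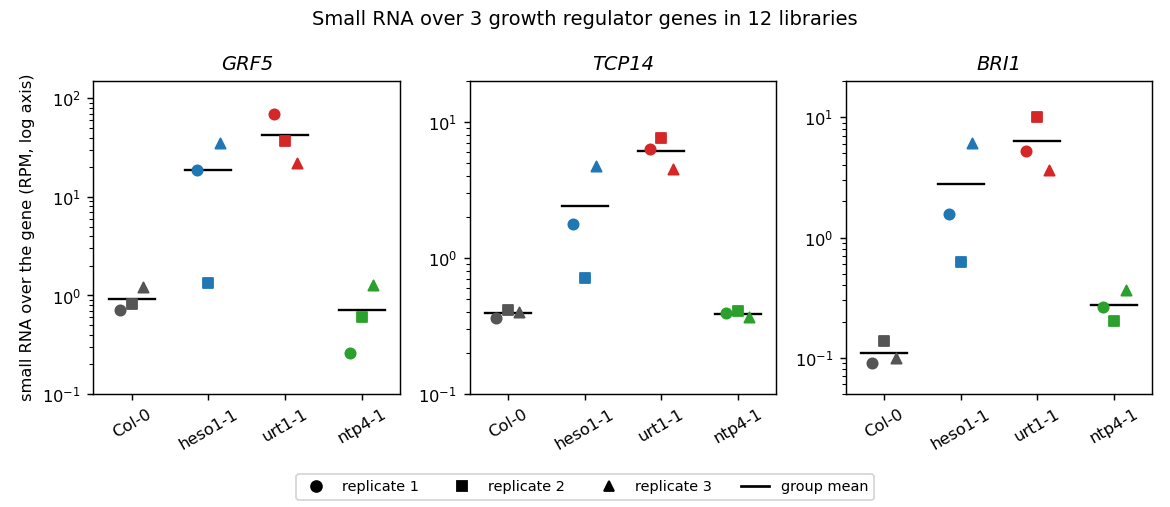
Small RNA over each gene in RPM on a log axis, by genotype; each symbol is a library, its shape the replicate number, and the line the mean of 3 libraries. In all 3 panels the urt1-1 symbols lie above every Col-0 and ntp4-1 symbol, and heso1-1 spreads widely, with GRF5 from 1.34 to 35.5 RPM.

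Within each gene the urt1-1 mean was highest, the heso1-1 mean came next, and Col-0 and ntp4-1 were lowest. Between the last pair, Col-0 had the higher mean for GRF5 and TCP14, and ntp4-1 had it for BRI1. The heso1-1 and urt1-1 ranges overlapped for all 3 genes, and the Col-0 and ntp4-1 ranges overlapped for GRF5 and TCP14, so these neighbours are not separated beyond their spread. Per kb of transcript, GRF5 carried 21.5 ± 12.2 RPM in urt1-1, TCP14 2.49 ± 0.618 and BRI1 1.44 ± 0.757 (SD, n = 3). In Col-0 the levels per kb were 0.463 ± 0.129, 0.159 ± 0.0112 and 0.0250 ± 0.00568 in the same order of genes. These values divide the sum over listed bins, 15 for GRF5, 3 for TCP14 and 5 for BRI1, by the whole transcript length. Unlisted bins thus add nothing though they were not measured as empty, so the gaps between genes depend on listing.

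Against Col-0, urt1-1 showed log2 fold changes on the log2(RPM + 0.5) scale of 4.79 (SE 0.42) for GRF5, 2.87 (SE 0.33) for TCP14 and 3.37 (SE 0.42) for BRI1. These are the differences the genes were picked for and carry no test here. In that comparison limma called 0.376% of 6125 loci higher and 0.098% lower, and 4.33% of loci had urt1-1 libraries that all lay above all Col-0 libraries, as the 3 genes did. The count of called loci, 29, fell to 9 without Col-0 replicate 3 and to 12 without Col-0 replicate 2 or without urt1-1 replicate 1. Against heso1-1 the differences were 1.83 (SE 0.96), 1.42 (SE 0.53) and 1.34 (SE 0.65), and none of the 3 had groups that did not overlap, while 3.07% of 6001 loci had urt1-1 wholly above heso1-1. Against ntp4-1 they were 5.08 (SE 0.54), 2.88 (SE 0.40) and 3.03 (SE 0.48), and all 3 had urt1-1 wholly above ntp4-1, as 14.2% of 5821 loci did. There limma called 0.155% of loci higher and 0.0172% lower, and in urt1-1 against heso1-1 it called 0.0% either way, with 219 loci at an unadjusted p under 0.05, 0 by edgeR and 11 by DESeq2. The limma count of 0 became 2 without heso1-1 replicate 2 or 3 and 1 without urt1-1 replicate 2. The 10 loci called against ntp4-1 became 0 without urt1-1 replicate 1, urt1-1 replicate 3 or ntp4-1 replicate 3, 3 without ntp4-1 replicate 2, 5 without urt1-1 replicate 2 and 39 without ntp4-1 replicate 1. Comparisons with Col-0 share its libraries, as do those with urt1-1.

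In heso1-1 against Col-0 only the heso1-1 libraries were outside the choice of genes, since the Col-0 libraries were used in picking them. All 3 genes had heso1-1 libraries that lay above all Col-0 libraries, which 2.41% of the 6141 loci did. The genes averaged under 1 RPM in Col-0 and reached the 1 RPM mean needed for testing only through heso1-1, where they are high. Neither that separation nor the unadjusted p-values are therefore given as support for a difference. None of the 3 passed limma's test. GRF5 had a log2 fold change of 2.95 (SE 0.95), TCP14 of 1.45 (SE 0.57) and BRI1 of 2.03 (SE 0.67), each higher in 3 of 3 libraries and each with a limma adjusted p of 0.404. Unadjusted, the limma p-values were 0.0134, 0.0334 and 0.0149, and 734 loci, or 12.0%, had one under 0.05. After adjustment limma called 2 loci higher and 2 lower, 0.0326% each way, and the 4 became 10 without heso1-1 replicate 1 or without replicate 3 and 7 without replicate 2. Relative to the median locus the changes were 3.28, 1.78 and 2.36.

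The result for GRF5 in heso1-1 turned on 1 library and on the tool. Without heso1-1 replicate 2, the library with 15 reads over the gene, GRF5 had a log2 fold change of 4.23 and passed limma's test (adjusted p = 0.0465). DESeq2 on whole reads also called it, at 4.97 (adjusted p = 0.00325), while over all alternatives its adjusted p ran from 0.00325 to 0.844. TCP14 and BRI1 passed under no alternative that gave a p, with adjusted p from 0.191 and 0.0995 upward. All 3 genes averaged under 1 RPM in Col-0 and entered the test only through the heso1-1 libraries, where they are high, so neither GRF5 call is given as support for a difference. Without heso1-1 replicate 3, TCP14 and BRI1 fell under the required mean of 1 RPM. The 3 heso1-1 libraries ranked in the reverse order of their depth for every gene: replicate 2 had the most reads and the lowest RPM, and replicate 3 the fewest reads and the highest RPM. In replicate 3, 1 read was worth 0.362 RPM. The part of depth in these values was not tested.

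Marker lists chosen as signs of other tissue also varied between these libraries. In these mutants a change in miRNA level and a change in tissue cannot be told apart from miRNA RPM. The pollen miRNA genes MIR845a, MIR845b and MIR2939, all 3 of that list being present, summed to 1485 to 2854 RPM in Col-0, 126 to 2427 in heso1-1, 347 to 2072 in urt1-1 and 289 to 853 in ntp4-1. Heso1-1 replicate 3 had the lowest sum of all at 126 RPM, while its MIR2939 value of 7.24 RPM was the highest of all libraries. MIR2939, which was read from its mature-miRNA bin shared with AT5G48280, was at 0.0899 to 0.804 RPM in Col-0 and 1.56 to 7.24 RPM in heso1-1. It was at 2.07 to 6.76 RPM in urt1-1 and 0.263 to 1.28 RPM in ntp4-1, so none of the pollen markers was at 0. The 133 chloroplast genes, a sign of green tissue, summed to 14543 to 25203 RPM in Col-0, 14030 to 31085 in heso1-1, 18310 to 22803 in urt1-1 and 14384 to 32703 in ntp4-1. The part of either marker list in the results was not tested.

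The comparison of heso1-1 with ntp4-1 used no library that entered the choice of genes, but all 3 genes averaged under 1 RPM in ntp4-1 and entered the test only through heso1-1. All 3 genes again had heso1-1 libraries that lay above all ntp4-1 libraries, as 13.8% of the 5829 loci did. GRF5 had a log2 fold change of 3.24 (SE 0.98, limma adjusted p = 0.653), TCP14 of 1.45 (SE 0.63, limma adjusted p = 0.722) and BRI1 of 1.68 (SE 0.70, limma adjusted p = 0.722). None passed the test, and limma called 0 loci there, 0.0% in either direction, with 341 loci (5.85%) at an unadjusted p under 0.05. On whole reads edgeR called 0 and DESeq2 71, GRF5 among them (log2 fold change 4.44, DESeq2 adjusted p = 0.00412), a call that the same limit touches. The limma count was 39 without ntp4-1 replicate 1, 3 without heso1-1 replicate 3 and 1 without heso1-1 replicate 1. The median locus lay 0.46 higher in heso1-1, and relative to it the changes were 2.78, 0.99 and 1.22.

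In both ntp4-1 and Col-0 the genes rested on few reads. The log2 differences were -0.29 for GRF5, -0.00 for TCP14 and 0.35 for BRI1, all under the 1 RPM mean and therefore untested. Limma called 1 locus higher and 1 lower in that comparison, 0.0168% each way, a count that was 539 without ntp4-1 replicate 1 and 0 without any other single library. With the replicate numbers as a block, limma called 72 loci higher and 1267 lower. BRI1 alone had groups that did not overlap, with ntp4-1 higher, as 1.78% of the 5958 tested loci had. That separation rests on 1 or 2 reads in each library whose reads were recovered.

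**Figure D2:**
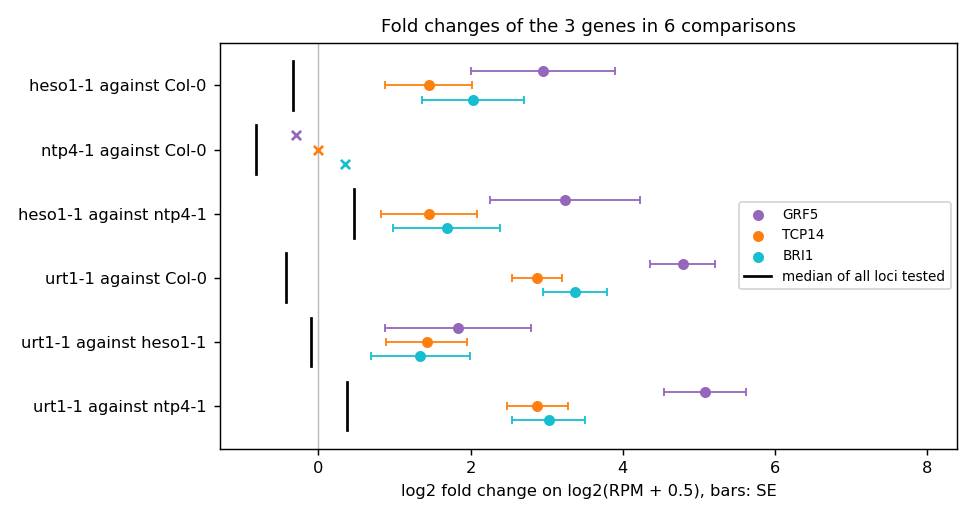
Log2 fold change of each gene on the log2(RPM + 0.5) scale in 6 comparisons, with bars for the SE, crosses for genes under the 1 RPM mean and black lines for the median of all loci tested. The genes lie right of the median in each comparison. In ntp4-1 against Col-0 they were under the 1 RPM mean that the loci of the median reached. With so few reads, the added 0.5 also limits how low their values could fall, so that place says nothing about them. The differences with urt1-1 are those the genes were picked for.

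Along GRF5 the highest bins lay in exon 3, in the 3' part of the gene. The highest bin, chr3:4609901-4610000 in the coding part of exon 3, had 19.1, 7.03 and 6.35 RPM in urt1-1, 4.57, 0.357 and 4.71 RPM in heso1-1, 0.180, 0 and 0.402 RPM in Col-0 and 0 in every ntp4-1 library. Its neighbour chr3:4609801-4609900 had 12.3, 6.76 and 3.11 RPM in urt1-1 and 3.23, 0.179 and 7.61 RPM in heso1-1. Together these are the 200 bases printed above. In both mutants the library lowest over the whole gene was also the lowest in these bins.

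The bins with the most intron bases were lower than their neighbours. The bin with 65 bases of the second intron had 0.490 ± 0.548 RPM in urt1-1, between neighbours of 3.62 and 2.69 RPM. The bin with 52 bases of the third intron had 0.920 ± 0.596 RPM, between neighbours of 3.11 and 3.83 RPM (SD, n = 3). No bin was listed between 4608700 and 4609101, a stretch that holds the first intron. After that intron, the 9 bins made only of exon had a median of 2.37 RPM in urt1-1 (0.795 to 10.8) and the 4 bins with intron bases one of 1.81 RPM (0.490 to 3.11), so the ranges overlapped. The all-exon bins starting at 4608601 and 4609201 were also low, at 0.525 and 0.795 RPM. In heso1-1 the medians were 1.56 and 0.787 RPM.

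By class of bin, 81.7% of the listed GRF5 signal in urt1-1 lay in mostly coding bins, 14.2% in mostly 3' UTR bins and 3.31% in mostly intronic bins. In heso1-1 the shares were 83.2%, 9.42% and 6.86%. All 15 bins were above 0 in the mean of either mutant, against 10 in Col-0 and 2 in ntp4-1. These counts depend on listing and on reads. No listed bin had under 12 reads over the 12 libraries, and the ntp4-1 libraries held 2, 3 and 7 reads over GRF5. The counts are therefore no measure of how widely the signal spread along the gene. The 5' UTR bin chr3:4608401-4608500, which also lists a transposable element, was different: it had 0.227 ± 0.209 RPM in Col-0, 0.104 ± 0.112 in heso1-1, 0.348 ± 0.266 in urt1-1 and 0.210 ± 0.189 in ntp4-1 (SD, n = 3). Its ranges overlapped between all groups, while it was the leading GRF5 bin of the Col-0 mean.

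**Figure D3:**
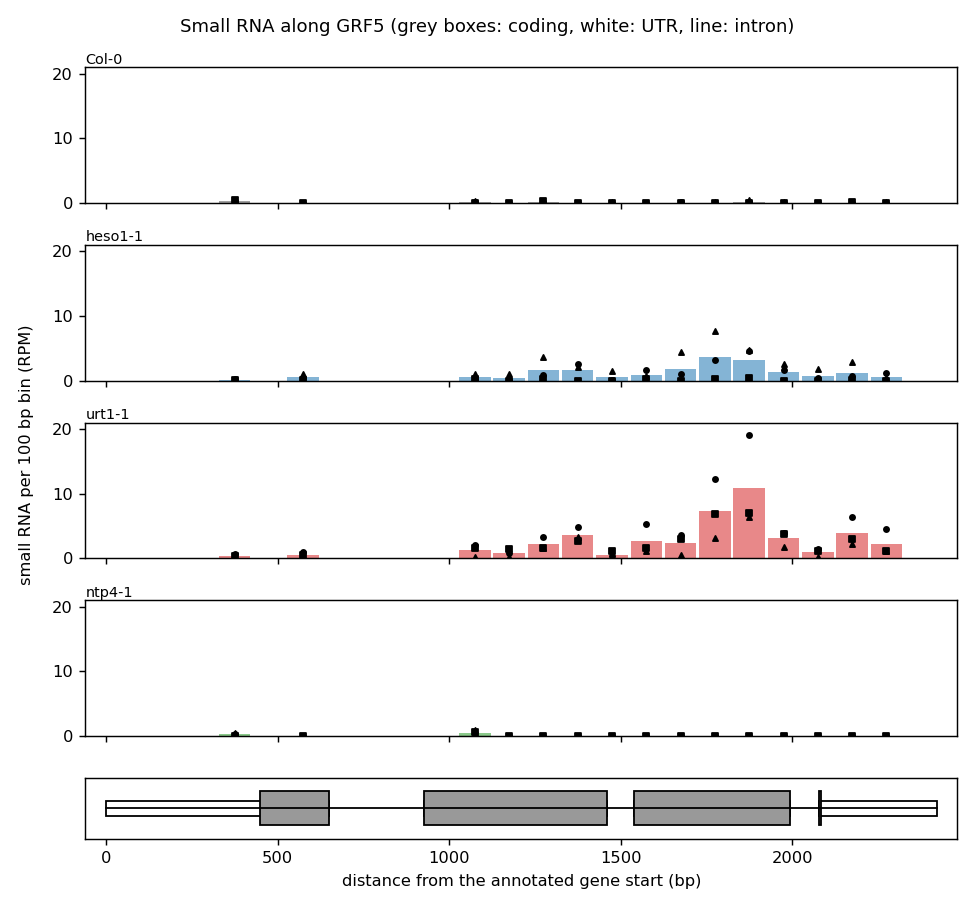
Small RNA per 100 bp bin along GRF5 in RPM, against the distance from the annotated gene start, in 4 panels by genotype above the gene model; bars are means of 3 libraries and symbols the libraries. The urt1-1 and heso1-1 bars peak in exon 3, at 10.8 and 3.67 RPM, while Col-0 and ntp4-1 stay near 0.

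The listed TCP14 signal came from 3 of the 26 bins the gene spans. The leading bin, chr3:17560501-17560600 in the 3' UTR, had 4.77, 5.41 and 2.85 RPM in urt1-1 and 1.45, 0.715 and 3.26 RPM in heso1-1. It had 0.180, 0.412 and 0.402 RPM in Col-0 and 0.132, 0.405 and 0.183 RPM in ntp4-1, so it was above 0 in all 12 libraries. The ranges of Col-0 and ntp4-1 in this bin lay below both other mutants. The coding bin printed above had 1.01 ± 0.0934 RPM in urt1-1, and the further 3' UTR bin chr3:17560701-17560800 had 0.792 ± 0.251 RPM (SD, n = 3). In urt1-1 83.6% of the listed signal was in 3' UTR bins and in heso1-1 80.3%. Most bins of TCP14 are not listed and were not measured as empty, so these are no shares of all small RNA over the gene. The next bin, chr3:17560801-17560900, is listed by the authors as intergenic but lies inside the 3' UTR of TAIR10.1, and it had 0.516, 0.812 and 0.648 RPM in urt1-1 and 0 in the 9 other libraries. With that bin added, the urt1-1 to Col-0 log2 fold change of TCP14 was 3.01. No listed bin had under 12 reads over the 12 libraries, so this bin is in the table only through its urt1-1 reads. Neither its contrast nor the value with it added is given as support. A listed promoter bin of TCP14 had 0.580 ± 0.672 RPM in urt1-1 and 0.0670 ± 0.116 RPM in Col-0 (SD, n = 3), and the ranges overlapped.

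BRI1 signal lay at the 3' end alone among the listed bins. The gene spans 45 bins, and the 5 listed begin 3644 bp from its start. The leading bin, chr4:18328601-18328700 in the 3' UTR, had 2.58, 4.33 and 1.43 RPM in urt1-1, 0.446, 0 and 2.17 RPM in heso1-1 and 0 in every Col-0 library. The bin before it, chr4:18328501-18328600, had 1.81, 3.25 and 0.908 RPM in urt1-1, 0.111, 0.357 and 2.90 RPM in heso1-1 and 0 in every Col-0 and ntp4-1 library. In urt1-1 83.9% of the listed BRI1 signal was in mostly 3' UTR bins and in heso1-1 80.9%. Most bins of the gene are not listed and were not measured as empty, so these are no shares of all small RNA over BRI1. The coding bin printed above, which encodes part of the end of the receptor's protein, had 0.529 ± 0.277 RPM in urt1-1 and 0.0300 ± 0.0519 RPM in Col-0 (SD, n = 3).

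**Figure D4:**
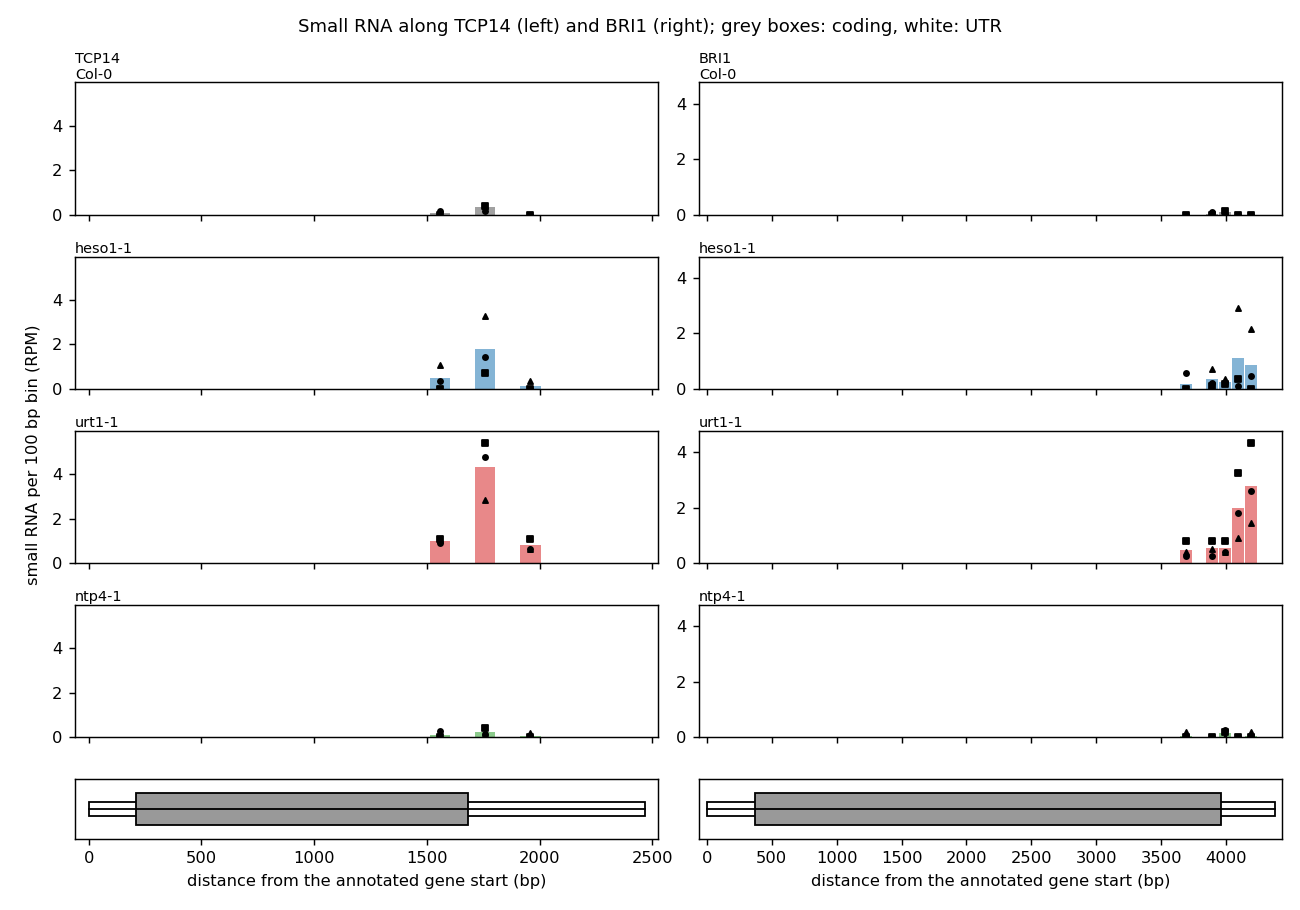
Small RNA per 100 bp bin along TCP14 (left) and BRI1 (right) in RPM, against the distance from the annotated gene start, by genotype above the gene models; bars are means of 3 libraries and symbols the libraries. In urt1-1 the highest bins, at 4.35 RPM for TCP14 and 2.78 RPM for BRI1, lie in the 3' UTR.

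The centre of the signal, as a percent of gene length from the start, was at 72.0% for GRF5, 71.0% for TCP14 and 93.3% for BRI1 in urt1-1. Over 970 protein-coding loci of at least 2000 bp and 1 RPM in urt1-1 the median centre was at 56.7%, with quartiles of 37.7% and 77.7%. GRF5 and TCP14 thus lay between the median and the upper quartile and BRI1 above it. The highest bin held 25.4% of the GRF5 signal, 70.7% of the TCP14 signal and 44.0% of the BRI1 signal, against a median of 47.8%. In heso1-1 the centres were at 69.6%, 70.1% and 92.9%. Centres and shares count listed bins only, for the 970 loci as well. Listed were 15 of 25 bins for GRF5, 3 of 26 for TCP14 and 5 of 45 for BRI1. Reads in unlisted bins could move these values, so they are descriptions of position and carry no test.

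The families and pathways around the 3 genes were largely not in the table. Of 69 genes in 6 lists (GRF family, GIF partners, TCP class I and class II, brassinosteroid receptors and signalling, brassinosteroid synthesis) 17 had listed bins. Of the 9 GRF genes these were GRF5 and GRF7. GRF7, which has a miR396 match, had 0.574 ± 0.318 RPM in Col-0 and 0.404 ± 0.591 in urt1-1. TCP15, BRL1 and BRL3, relatives of TCP14 and BRI1, had no listed bin.

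Beside the 3 genes, 4 to 6 list genes could be tested in each comparison, and limma called none of them in any, at an adjusted p under 0.05. At an unadjusted p under 0.05 there were 1 for heso1-1 against Col-0 (BRL2), 4 for ntp4-1 against Col-0 (TCP3, TCP4, BRL2 and BIN2), 1 for heso1-1 against ntp4-1 (TCP3), 2 for urt1-1 against Col-0 (DWF1 and BIN2), 0 for urt1-1 against heso1-1 and 2 for urt1-1 against ntp4-1 (TCP3 and DWF1). EdgeR called 0 in each, and DESeq2 called DWF1 in urt1-1 against Col-0. DWF1 averaged under 1 RPM in Col-0 and in ntp4-1 and entered the tests against them only through urt1-1. Its DESeq2 call and unadjusted p-values are therefore not given as support. The median log2 fold change of the tested list genes was -0.51 in heso1-1 against Col-0, where it was -0.33 over all loci, and -0.46 in urt1-1 against Col-0, where it was -0.43.

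Among brassinosteroid genes, BIN2, the kinase that inhibits the pathway, had the highest level of all listed list genes in Col-0. It was at 11.97 ± 1.13 RPM in Col-0, 8.48 ± 2.66 in heso1-1, 6.61 ± 0.706 in urt1-1 and 4.47 ± 3.02 in ntp4-1 (SD, n = 3). BRL2, a receptor kinase related to BRI1, was at 3.24 ± 1.28, 1.24 ± 0.764, 2.10 ± 0.312 and 1.01 ± 0.736 RPM in that order. DWF1, a brassinosteroid synthesis enzyme, was at 0.395 ± 0.117 RPM in Col-0, 1.55 ± 1.20 in heso1-1, 2.19 ± 0.554 in urt1-1 and 0.324 ± 0.414 in ntp4-1. DWF1 and TCP3 both had their means in the order urt1-1, heso1-1, Col-0, ntp4-1. The DWF1 urt1-1 to Col-0 log2 fold change was 1.57 (limma adjusted p = 0.176). Among class II TCP genes, TCP3 was at 2.85 ± 0.584 RPM in Col-0, 3.71 ± 0.905 in heso1-1, 4.39 ± 1.52 in urt1-1 and 0.946 ± 0.368 in ntp4-1, and TCP4 at 2.48 ± 0.328, 1.74 ± 0.917, 1.66 ± 1.06 and 0.987 ± 0.631 RPM. Both are targets of miR319.

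**Figure D5:**
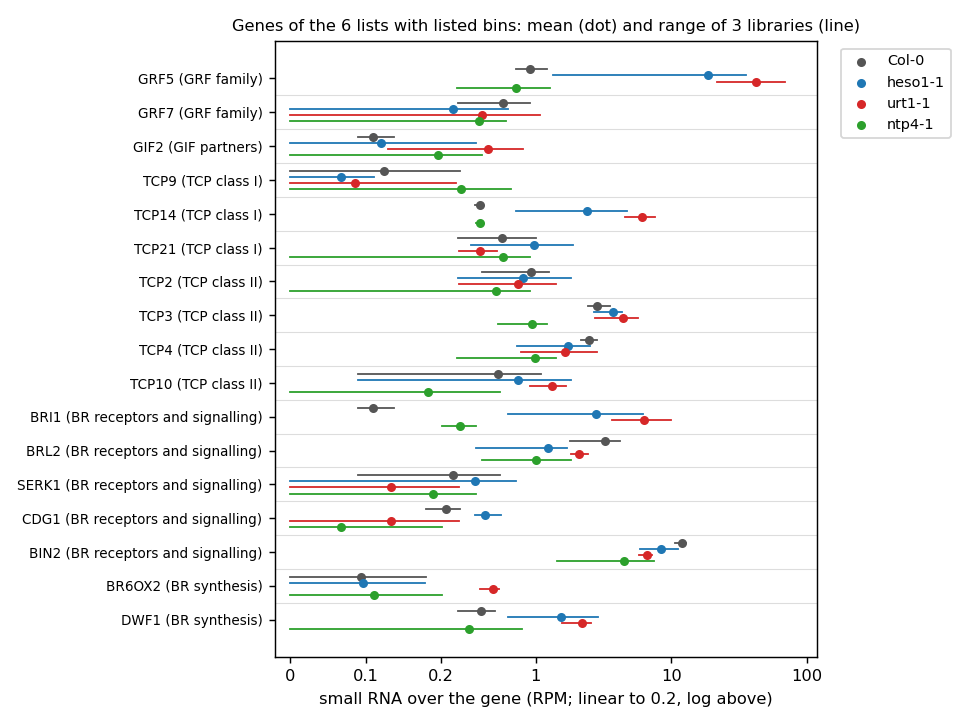
Small RNA over the 17 list genes with listed bins, in RPM on an axis that is linear to 0.2 and logarithmic above; dots are means of 3 libraries and lines their range, by genotype. The heso1-1 and urt1-1 dots of GRF5, GIF2, TCP14, TCP3, TCP10, BRI1, BR6OX2 and DWF1 lie above their Col-0 dots. In heso1-1 against Col-0 this is 0.121 against 0.109 RPM for GIF2 and 0.0967 against 0.0934 RPM for BR6OX2. Both dots lie below for GRF7, TCP9, TCP2, TCP4, BRL2 and BIN2, and only the heso1-1 dot lies above for TCP21, SERK1 and CDG1. BIN2 has the highest Col-0 mean, 11.97 RPM.

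The loci most like each gene over the 12 libraries were partly the genes themselves. Likeness was Pearson's r of log2(RPM + 0.5) over 12 libraries, among the 6025 loci that averaged 1 RPM or more. For TCP14 the closest were EBF1 (r = 0.995), AT5G20700 (0.99), BRI1 (0.987), GRF5 (0.966) and AT1G62030 (0.962). For BRI1 they were TCP14 (0.987), EBF1 (0.983), AT5G20700 (0.98), AT1G47389 (0.952) and AT5G16410 (0.948). For GRF5 they were EBF1 (0.976), TCP14 (0.966), AT5G20700 (0.963), GH9B1 (0.961) and BRI1 (0.948). EBF1, an F-box protein of ethylene signalling, was at 1.08 ± 0.238 RPM in Col-0, 15.1 ± 16.8 in heso1-1, 35.8 ± 7.98 in urt1-1 and 1.14 ± 0.157 in ntp4-1 (SD, n = 3). GH9B1, a cell wall endoglucanase, was at 0.389 ± 0.264, 2.29 ± 1.57, 6.42 ± 1.61 and 0.440 ± 0.458 RPM. The 12 points share libraries and depth, and loci high in urt1-1 share the reason these genes were picked, so the values are a description with no p.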

How the data were processed

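Small RNA was measured in 12 libraries of inflorescences, 3 in each of 4 groups taken from the labels. The deposited values are RPM, read counts that the authors scaled to each library's total, in bins of 100 bp with the genes the authors placed in each bin. No source used here names the aligner, the genome build or the handling of multi-mapping reads. The bin positions matched TAIR10.1: 98.5% of gene listings overlapped the gene of that name, against 91.5% and 92.0% with bins moved by 100 bp either way, so gene models come from there. In 11 columns all values came out as whole reads, within a tolerance of 1e-06; this was not claimed for Col-0 replicate 3, which is absent from tests on reads. Depth limits the low values: 1 read is worth 0.0894 to 0.362 RPM.

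A locus is the sum of all bins that list the gene. Groups were compared with limma 3.58.1 under R 4.3.3, with a mean-variance trend, on log2(RPM + 0.5). Loci averaging 1 RPM or more across the 6 libraries compared were tested, two-sided, with Benjamini-Hochberg adjustment over all loci and a threshold of 0.05, after the procedure was tested on simulated data. Fold changes on this scale understate the change of low loci. The labels do not say whether replicates came from separate plants or pools beyond calling them biological. Alternatives were 2 other pseudocounts, other filters, TMM scaling, loci by position, a replicate block, all libraries in 1 fit, edgeR 4.0.16 and DESeq2 1.42.0 on whole reads, and each library left out. A fit with the 2 sets of libraries split by the first principal component (47.6% of variance) was added after the data were seen.

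Members and lists were chosen with earlier results of these data known. The text names the 3 genes, list genes averaging 1 RPM or more, GRF, TCP15 and BRL genes, and the 5 loci most like each gene; genes at an unadjusted p under 0.05 are named beside their count. Deviations of same-numbered libraries from their group means had r of 0.422, 0.157 and 0.127 for heso1-1 and Col-0. For ntp4-1 and Col-0 r was 0.558, 0.266 and 0.232, and for heso1-1 and ntp4-1 0.44, 0.116 and 0.0817. In each of these comparisons r was highest for replicate 1. The first principal component put replicate 1 in 1 set and replicates 2 and 3 in the other in all of these groups. In urt1-1, replicate 3 was in the set of replicate 1. For urt1-1, r was 0.288, 0.315 and -0.199 with Col-0, 0.229, 0.206 and -0.0994 with heso1-1, and 0.304, 0.353 and -0.276 with ntp4-1. Libraries of different number were not correlated, so these values do not settle whether replicate numbers pair the libraries. The main fits held no block. With the block, the adjusted p-values of GRF5, TCP14 and BRI1 in heso1-1 against Col-0 were 0.159, 0.191 and 0.167.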

Additional observations from a re-analysis of the deposited data

How the results depend on the processing

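No fold change of GRF5, TCP14 or BRI1 in heso1-1 or urt1-1 changed sign under any setting run. In heso1-1 against Col-0, GRF5 passed the test with DESeq2 (4.97) and without heso1-1 replicate 2 (4.23); leaving out single libraries gave 2.09 to 4.23 for GRF5, 1.43 to 1.95 for TCP14 and 2.01 to 2.60 for BRI1. In heso1-1 against ntp4-1, GRF5 passed with DESeq2 (4.44, DESeq2 adjusted p = 0.00412) and with a replicate block (3.24, limma adjusted p = 0.0366). Same-numbered libraries there had r of 0.44, 0.116 and 0.0817, which does not settle a pairing. GRF5 averaged under 1 RPM in Col-0 and ntp4-1 and entered these tests only through heso1-1, so none of these calls is given as support. Leave-one-out ranges were 2.38 to 4.53 for GRF5, 1.44 to 1.96 for TCP14 and 1.62 to 2.26 for BRI1. In both comparisons the TCP14 and BRI1 ranges lack the run without heso1-1 replicate 3, their highest heso1-1 library, while the GRF5 ranges hold it. The block changed no other call of the 3 genes, while the library-set term changed none.

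In ntp4-1 against Col-0, TCP14 moved to 0.41 with TMM scaling and BRI1 to 0.60, and BRI1 was at 0.83 and 0.20 with pseudocounts of 0.1 and 1; edgeR and DESeq2 gave no value there. For urt1-1 against Col-0, edgeR and DESeq2 gave 6.10 and 6.16 for GRF5, 4.27 and 4.35 for TCP14 and 5.89 and 6.13 for BRI1. Pseudocounts of 0.1 and 1 gave 3.64 and 2.34 for TCP14 and 4.82 and 2.63 for BRI1, and TMM gave 3.16 for TCP14. For urt1-1 against ntp4-1 those settings gave, for TCP14, 3.44 and 3.51 on reads, 3.65 and 2.34 with the pseudocounts and 2.56 with TMM. For BRI1 they gave 3.91 and 3.99 on reads and 3.99 and 2.42 with the pseudocounts. Leaving out single libraries moved urt1-1 against heso1-1 between 0.55 and 2.70 for GRF5. The GRF5 share in its highest bin was 19.3% in urt1-1 replicate 2 alone, and that of TCP14 62.9% in replicate 3 alone. The cause of these shifts was not tested.

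Called loci over the whole table went from 4 to 55 with DESeq2 and 2 with edgeR (heso1-1 against Col-0), from 2 to 1339 with the block, 673 with all libraries in 1 fit, 197 with DESeq2, 79 with TMM, 3 with a pseudocount of 1, 0 with one of 0.1, at a mean of at least 5 RPM, by position and by edgeR, 539 without ntp4-1 replicate 1 and 2564 with the library-set term (ntp4-1 against Col-0), from 0 to 43 with the block, 71 with DESeq2, 8 with all libraries, 7 with the library-set term and 5 with TMM (heso1-1 against ntp4-1), from 10 to 26 with the block, 73 with DESeq2, 48 with all libraries, 113 with the library-set term, 4 with a pseudocount of 0.1 or by position, 3 with edgeR and 2 at a mean of at least 5 RPM (urt1-1 against ntp4-1), and from 29 to 114 with DESeq2, 70 with TMM, 12 at a mean of at least 5 RPM, 9 with edgeR and 283 with the library-set term (urt1-1 against Col-0). In heso1-1 against Col-0 and against ntp4-1, TCP14 and BRI1 could not be tested at that mean or without heso1-1 replicate 3. Depth limits TCP14 and BRI1 in Col-0 and ntp4-1, where a library holds 1 to 4 reads.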
